A study of Mus musculus with 12 samples.

Results

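PI3 kinase is the lipid kinase that T cells switch on downstream of the antigen receptor, costimulation and cytokines. It writes the lipid PIP3 into the plasma membrane, where kinases such as Akt dock and become active, and active Akt in turn keeps the FOXO transcription factors out of the nucleus. A catalytic subunit makes PIP3, a regulatory subunit holds the catalytic one stable and quiet until a receptor recruits it, and separate brakes either bind the kinase or take a phosphate off PIP3. The genes described here are 8 rows of the expression table, picked by symbol: the regulatory subunits Pik3r1 and Pik3r5, the catalytic subunits Pik3cd and Pik3cg, the inhibitory membrane protein Pik3ip1, the lipid phosphatase Inpp5d, and the kinases Akt1 and Akt2. The table holds 45796 genes in all. The 8 genes were chosen with earlier results of these same data known, and the values that chose them are not stated. The comparisons of imiquimod with sham are counted here as part of that choice. Differences between imiquimod and sham, and how these differ between genotypes, are therefore given for them as a description. Nothing is read from counts of calls in those comparisons.

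RNA was measured in gamma delta T cells carrying the Vg4 and Vd4 receptor chains, taken from lymph nodes that drain the skin of C57BL/6 mice. There were 4 groups of 3 libraries: NF-kB1-deficient mice given imiquimod, NF-kB1-deficient mice given sham cream, wild-type mice given imiquimod and wild-type mice given sham cream. Imiquimod activates a Toll-like receptor and is used in mice to set off a psoriasis-like inflammation. NF-kB1 is the precursor of an NF-kB subunit, and the sources used here give neither the allele, the cells that lack it, the dose, the time nor the age of the mice. The labels do not tie the 3 libraries of a group to different animals, so the spread between them may be technical. The p-values do not measure the spread of those 3 libraries alone. They use the spread within all 4 groups, drawn strongly toward that of the other genes tested.

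The libraries count 3' ends, and values are the deposited normalized read counts taken back from log2 to the linear scale, called normalized values below. From the steps between low values each library holds an implied 20497 to 69446 reads, with 1 read worth 0.488 to 1.98. These depths are estimates, and reads that copy the same molecule cannot be told apart. The implied depth was 45935 to 67022 reads in the NF-kB1-deficient imiquimod libraries, 27118 to 47410 in NF-kB1-deficient sham, 20497 to 35602 in wild-type imiquimod and 27973 to 69446 in wild-type sham. Nfkb1 itself was low throughout, at 5.41, 6.64 and 5.84 in NF-kB1-deficient imiquimod, 8.82, 1.09 and 2.52 in NF-kB1-deficient sham, 7.34, 21.0 and 0 in wild-type imiquimod, and 6.71, 4.38 and 1.24 in wild-type sham. These groups overlap, so Nfkb1 does not separate the genotypes, and the sources used here do not place the deletion relative to the counted 3' end. Of 20 gamma delta T cell markers 15 were above 0 in some library; Tcrd stood at 14.1 to 76.8 in all 12, while Trdc, Tcrg-C1, Tcrg-C4, Trdv4 and Il17a were listed at 0 in all. The T cell receptor beta locus, Tcrb, stood at 57.4 to 103 in all 12 libraries.

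All 8 genes are protein coding and lie, on GRCm38.p6, at these places. Pik3r1 (Entrez 18708) spans 101680761 to 101768217 of chromosome 13, minus strand, and Pik3r5 (Entrez 320207) spans 68432125 to 68497849 of chromosome 11, plus strand. Pik3cd (Entrez 18707) spans 149649168 to 149702566 of chromosome 4, minus strand, and Pik3cg (Entrez 30955) spans 32173397 to 32208677 of chromosome 12, minus strand. Pik3ip1 (Entrez 216505) spans 3319241 to 3342971 of chromosome 11, plus strand, and Inpp5d (Entrez 16331) spans 87620312 to 87720510 of chromosome 1, plus strand. Akt1 (Entrez 11651) spans 112653821 to 112674884 of chromosome 12, minus strand, and Akt2 (Entrez 11652) spans 27591552 to 27640826 of chromosome 7, plus strand.

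Because the genotype removes an NF-kB subunit, the start sites of the 3 genes that the results turn on are shown with matches to a loose kappa B motif, GGGNNNNNCC, in capitals on either strand; overlapping matches run together. Each sequence is from RefSeq (GRCm38.p6), from 250 bases before to 50 bases after a listed start, 5′ to 3′ on the strand of the gene. The starts are the most upstream ones in the RefSeq promoter table and, for Pik3cd, also the second one, which holds the most matches; the spans given above reach further upstream for Pik3cd and Pik3ip1 than these starts. The windows are Pik3r1 at chr13:101768168-101768467 (minus strand), Pik3cd at chr4:149698659-149698958 and, for its second start, chr4:149676040-149676339 (both minus strand), and Pik3ip1 at chr11:3330481-3330780 (plus strand).
Pik3r1: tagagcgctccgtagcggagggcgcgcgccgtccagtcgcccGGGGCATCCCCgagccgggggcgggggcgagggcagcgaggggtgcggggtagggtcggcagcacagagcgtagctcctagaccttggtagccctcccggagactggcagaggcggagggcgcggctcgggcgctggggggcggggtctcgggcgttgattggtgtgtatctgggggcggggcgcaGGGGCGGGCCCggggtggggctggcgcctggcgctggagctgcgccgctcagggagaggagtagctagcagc
Pik3cd: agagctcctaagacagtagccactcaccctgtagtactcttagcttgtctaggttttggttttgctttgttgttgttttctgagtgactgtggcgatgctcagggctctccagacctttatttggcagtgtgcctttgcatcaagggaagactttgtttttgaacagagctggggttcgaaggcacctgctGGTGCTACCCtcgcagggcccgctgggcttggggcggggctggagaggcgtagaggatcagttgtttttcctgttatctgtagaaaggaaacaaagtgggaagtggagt
Pik3cd, second start: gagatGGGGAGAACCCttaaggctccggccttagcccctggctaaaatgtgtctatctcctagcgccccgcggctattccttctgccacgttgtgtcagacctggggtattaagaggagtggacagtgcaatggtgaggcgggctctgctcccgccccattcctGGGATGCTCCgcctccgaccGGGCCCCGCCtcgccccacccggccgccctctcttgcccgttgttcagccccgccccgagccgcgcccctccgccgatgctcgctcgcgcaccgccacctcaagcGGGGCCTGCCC
Pik3ip1: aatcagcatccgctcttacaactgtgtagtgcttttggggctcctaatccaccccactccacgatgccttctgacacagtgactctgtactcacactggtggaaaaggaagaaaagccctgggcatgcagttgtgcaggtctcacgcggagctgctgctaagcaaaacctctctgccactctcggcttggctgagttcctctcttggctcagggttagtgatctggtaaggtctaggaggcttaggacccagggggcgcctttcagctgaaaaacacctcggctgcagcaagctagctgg
The Pik3r1 window holds 7 matches counted on both strands, in 2 clusters that begin 208 and 22 bases before the start. The first Pik3cd window holds 1, which begins 59 bases before the start, and the second holds 8, while a further Pik3cd start, not shown, has 1. The Pik3ip1 window holds 0, as does the window of the other listed Pik3r1 start. All 8 genes matched the table, with 16 start sites between them, of which 9 hold a match; 50.8% of all 32851 mouse windows of this length do. A narrower form, GGGANTTTCC, was in 0 of the 16, against 0.411% of all windows. The FOXO motif TGTTTAC was in 2 of the 16, one start of Pik3cg and one of Akt1, against 3.65% of all windows. A match is a description of the letters and shows no binding.

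Among the regulatory subunits, Pik3r1, whose product carries the class IA catalytic subunits to activated receptors, was the one with lower values after imiquimod in both genotypes. In NF-kB1-deficient cells its normalized values were 8.26, 2.79 and 10.7 with imiquimod, against 62.7, 54.2 and 42.2 with sham. All 3 imiquimod libraries lay below all 3 sham libraries, and the means differed 7.31-fold (7.25 ± 4.05 with imiquimod and 53.0 ± 10.3 with sham, SD, n = 3 each). In wild-type cells the values were 5.76, 8.95 and 1.98 with imiquimod, against 49.0, 10.3 and 31.1 with sham. Here too the groups did not overlap, although sham replicate 2 came close to the imiquimod values, and the means differed 5.41-fold (5.56 ± 3.49 with imiquimod and 30.1 ± 19.4 with sham). On the log2(normalized value + 1) scale used for all folds below, the shift was -2.84 ± 0.78 (SE) in NF-kB1-deficient cells and -2.16 ± 0.78 in wild-type cells. In implied reads the imiquimod libraries held 16.5, 4.0 and 16.5 for Pik3r1 where NF-kB1 was lacking and 5.5, 8.5 and 1.0 in the wild type, while no sham library held fewer than 21.0. The imiquimod levels of Pik3r1 thus rest on few reads in both genotypes. In these bulk libraries fewer cells that express a gene and less RNA per cell cannot be told apart.

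Pik3r1 ordered the groups with NF-kB1-deficient sham highest, then wild-type sham, NF-kB1-deficient imiquimod and wild-type imiquimod. Each pair of neighbours in that order overlapped: wild-type sham reached down to 10.3 and NF-kB1-deficient imiquimod up to 10.7. In NF-kB1-deficient cells Pik3r1 ranked 7 among the most negative folds of all 1571 genes tested, in a comparison counted as part of its choice. The 2 shifts differed by -0.68 ± 1.11 (NF-kB1 deficient minus wild type; 95% interval -2.86 to 1.51), and limma's adjusted p for that difference was 0.867. The interval is wide, so a difference of either sign remains possible.

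**Figure D1:**
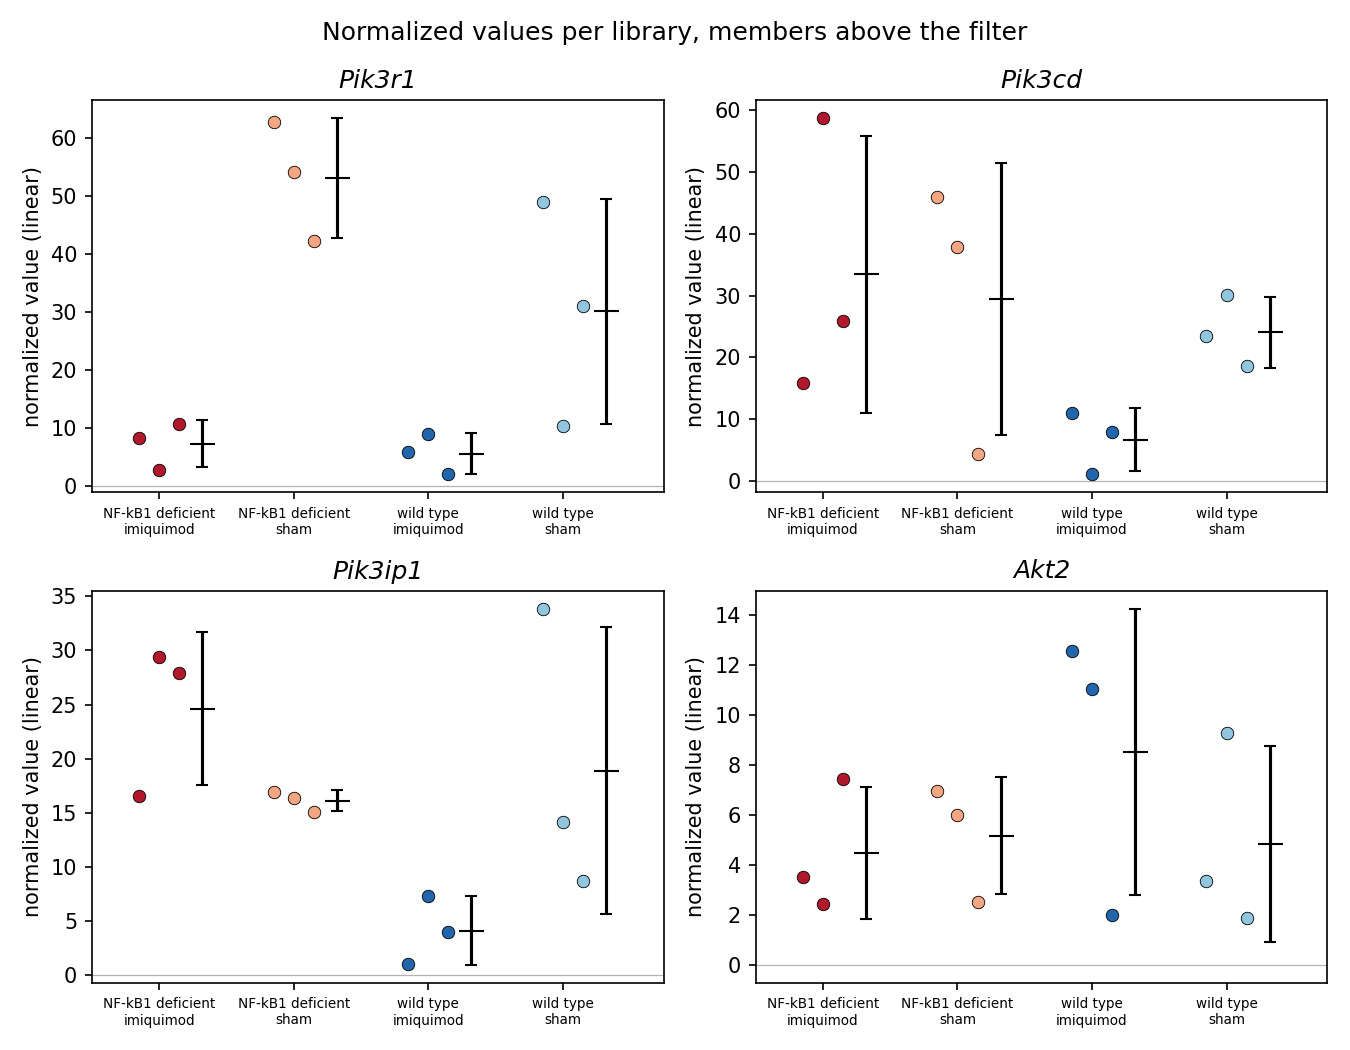
Normalized value (linear scale, vertical axis) in each of the 12 libraries for the 4 members above the filter on low values, by group along the horizontal axis. Points are libraries, the bar beside them is the mean with its SD (n = 3). Pik3r1 lies at 2.79 to 10.7 in NF-kB1-deficient imiquimod and at 1.98 to 8.95 in wild-type imiquimod, while Pik3cd and Pik3ip1 are low in wild-type imiquimod libraries.

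Among the catalytic subunits, Pik3cd, the delta isoform that leukocytes rely on, had overlapping imiquimod and sham values in NF-kB1-deficient cells, and in wild-type cells its imiquimod values were the lower ones. In NF-kB1-deficient cells the values were 15.8, 58.7 and 25.9 with imiquimod, against 45.9, 37.8 and 4.40 with sham. Those groups overlapped widely, with 1 high imiquimod library and 1 low sham library. In wild-type cells the values were 11.0, 1.05 and 7.92 with imiquimod, against 23.5, 30.0 and 18.6 with sham. All 3 wild-type imiquimod libraries lay below all 3 wild-type sham libraries, and the means differed 3.61-fold (6.66 ± 5.10 with imiquimod and 24.0 ± 5.71 with sham). The shift was 0.49 ± 0.75 in NF-kB1-deficient cells and -2.03 ± 0.75 in wild-type cells. In NF-kB1-deficient cells the sign rested on single libraries: the shift was -0.51 without sham replicate 3 and -0.01 without imiquimod replicate 2. The order of the group means was NF-kB1-deficient imiquimod, NF-kB1-deficient sham, wild-type sham and wild-type imiquimod, and of its neighbours wild-type sham and wild-type imiquimod did not overlap.

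Pik3ip1, the brake that binds the catalytic subunit at the membrane, likewise had overlapping imiquimod and sham values in NF-kB1-deficient cells and lower imiquimod than sham values in wild-type cells. In NF-kB1-deficient cells its values were 16.5, 29.4 and 27.9 with imiquimod, against 16.9, 16.4 and 15.1 with sham. The sham libraries were tightly placed and the lowest imiquimod library fell among them. In wild-type cells the values were 1.05, 7.37 and 3.96 with imiquimod, against 33.9, 14.2 and 8.69 with sham. All 3 wild-type imiquimod libraries lay below all 3 wild-type sham libraries, and the means differed 4.58-fold (4.13 ± 3.16 with imiquimod and 18.9 ± 13.2 with sham). The shift was 0.54 ± 0.85 in NF-kB1-deficient cells and -1.97 ± 0.85 in wild-type cells. The order of the group means was NF-kB1-deficient imiquimod, wild-type sham, NF-kB1-deficient sham and wild-type imiquimod, and of its neighbours NF-kB1-deficient sham and wild-type imiquimod did not overlap.

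Both genes had higher values in NF-kB1-deficient than in wild-type cells once the mice had received imiquimod, with groups that did not overlap. The lowest NF-kB1-deficient imiquimod value of Pik3cd was 15.8 and the highest wild-type imiquimod value was 11.0; for Pik3ip1 these were 16.5 and 7.37. The means differed 5.02-fold for Pik3cd (33.5 ± 22.4 in NF-kB1-deficient and 6.66 ± 5.10 in wild-type cells) and 5.97-fold for Pik3ip1 (24.6 ± 7.05 in NF-kB1-deficient and 4.13 ± 3.16 in wild-type cells). The genotype difference under imiquimod was 2.31 ± 0.75 for Pik3cd (95% interval 0.83 to 3.79; limma adjusted p = 0.0981) and 2.50 ± 0.85 for Pik3ip1 (0.82 to 4.18; adjusted p = 0.117). Neither passed an adjusted p of 0.05, with all 3 NF-kB1-deficient libraries above all 3 wild-type libraries in both genes. Pik3cd passed without wild-type imiquimod replicate 1 (0.0403) or without NF-kB1-deficient sham replicate 3 (0.0477), and Pik3ip1 passed without wild-type imiquimod replicate 2 (0.0413). Both passed with upper-quartile scaling (0.0147 and 0.0284). This comparison and the wild-type imiquimod shift share the 3 wild-type imiquimod libraries, so they are not separate evidence. That shift is counted as part of the choice of members, so this comparison is not free of that choice.

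Under sham cream neither gene differed by genotype beyond the spread. Pik3cd averaged 29.4 ± 22.0 in NF-kB1-deficient sham and 24.0 ± 5.71 in wild-type sham, a difference of -0.20 ± 0.75 on the log2 scale (95% interval -1.68 to 1.28; limma adjusted p = 0.979). The means and the log2 difference have opposite signs, and without the low NF-kB1-deficient sham replicate 3 the log2 difference was 0.79. Pik3ip1 averaged 16.1 ± 0.936 in NF-kB1-deficient sham and 18.9 ± 13.2 in wild-type sham, a difference of -0.01 ± 0.85 (-1.69 to 1.67; adjusted p = 0.999). Pik3r1 averaged 53.0 ± 10.3 in NF-kB1-deficient sham and 30.1 ± 19.4 in wild-type sham, a difference of 1.02 ± 0.78 (-0.52 to 2.57; adjusted p = 0.947). Under imiquimod Pik3r1 differed by 0.35 ± 0.78 between genotypes (-1.20 to 1.89; adjusted p = 0.879).

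Agreement of the imiquimod shifts between genotypes was read from the difference of the 2 shifts. Both shifts are counted as part of the choice of members, so the intervals and p-values of this difference are a description. For Pik3cd the NF-kB1-deficient shift exceeded the wild-type one by 2.51 ± 1.06 (95% interval 0.42 to 4.60; limma adjusted p = 0.337), and for Pik3ip1 by 2.51 ± 1.21 (0.13 to 4.89; adjusted p = 0.423). The unadjusted intervals leave out 0, while the p-values adjusted over 1571 genes do not pass. The shifts of Pik3r1 and Pik3ip1 lay on opposite sides of 0 in NF-kB1-deficient cells (-2.84 and 0.54) and on the same side in wild-type cells (-2.16 and -1.97). Over the 12 libraries Pearson's r between members was 0.50 for Pik3cd with Pik3ip1, 0.38 for Pik3ip1 with Pik3r1 and 0.18 for Pik3cd with Pik3r1, as a description of libraries that share groups and depth.

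**Figure D2:**
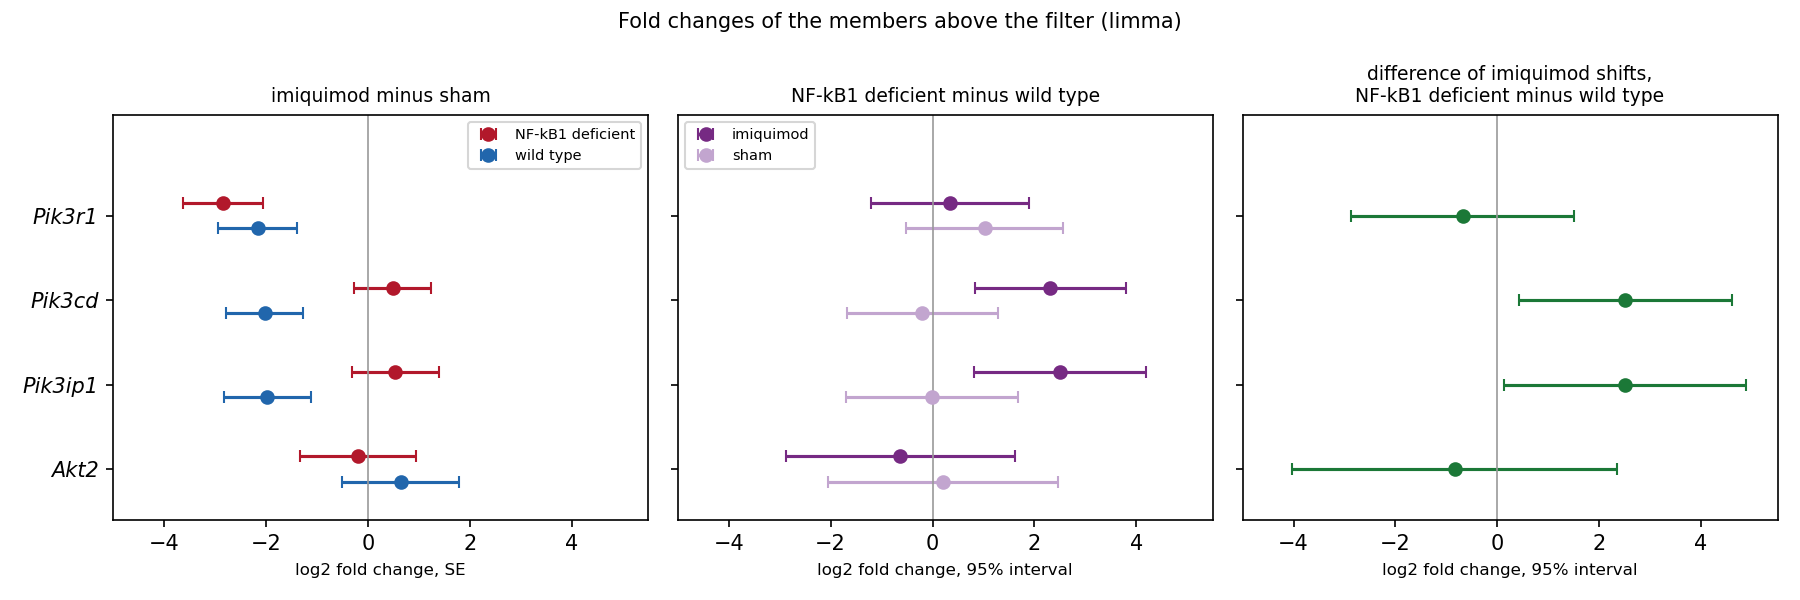
Log2 fold changes (horizontal axis) from limma for the 4 members above the filter, with the SE as error bars in the left panel and 95% intervals in the others; the left panel gives imiquimod minus sham in each genotype, the middle panel NF-kB1 deficient minus wild type under each treatment, and the right panel the difference of both shifts. Pik3r1 lies below 0 in both genotypes in the left panel, and Pik3cd (2.31) and Pik3ip1 (2.50) lie above 0 between genotypes under imiquimod.

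Depth and the gamma delta and alpha beta marker sums also separated the genotypes under imiquimod. There the other marker sums and Tcrb overlapped or stood at 0. The 3 NF-kB1-deficient imiquimod libraries were all deeper (45935 to 67022 implied reads) than the 3 wild-type imiquimod libraries (20497 to 35602). The wild-type imiquimod values of Pik3cd correspond to 10.5, 1.0 and 4.0 implied reads, and those of Pik3ip1 to 1.0, 7.0 and 2.0. The 20 gamma delta T cell markers summed to 147 to 175 in NF-kB1-deficient imiquimod, 89.1 to 199 in NF-kB1-deficient sham, 75.6 to 133 in wild-type imiquimod and 173 to 196 in wild-type sham. The 7 plasma cell genes with a row summed to 2.25 to 21.7 in NF-kB1-deficient imiquimod, 0 in NF-kB1-deficient sham, 6.93 to 21.5 in wild-type imiquimod and 0 to 6.21 in wild-type sham, with Ighg1 and Igha at 0 in all libraries. Xbp1 was above 0 in 7 libraries (up to 14.7), Prdm1 in 4 (up to 8.42) and Sdc1 in 3, while Jchain and Mzb1 were above 0 in 1 each. The 8 alpha beta T cell genes summed to 3.70 to 17.6 in NF-kB1-deficient imiquimod, 4.34 to 21.0 in NF-kB1-deficient sham, 3.14 to 3.16 in wild-type imiquimod and 5.63 to 13.1 in wild-type sham, with Trac, Trbc1, Trbc2, Cd4 and Foxp3 at 0 in all. That list does not hold Tcrb, which alone stood above its sum in each group: 72.7 to 80.9 in NF-kB1-deficient imiquimod, 83.7 to 91.5 in NF-kB1-deficient sham, 57.4 to 82.3 in wild-type imiquimod and 73.0 to 103 in wild-type sham. The 9 B cell genes summed to at most 1.46 in any library, and the 5 neutrophil genes stood at 0 in all 12. In any library the 5 natural killer cell genes summed to at most 10.5, and the 8 stromal, endothelial and epithelial genes to at most 6.83. The natural killer sum was Eomes alone, with Ncr1, Klrb1c, Klra8 and Klra4 at 0 in all. The 10 macrophage, monocyte and dendritic cell genes summed to 0 to 4.01 in NF-kB1-deficient imiquimod, 0 to 3.68 in NF-kB1-deficient sham, 0 to 5.76 in wild-type imiquimod and 7.45 to 14.9 in wild-type sham, with Adgre1, Csf1r, Lyz2, Cd14, Itgax, Itgam and Flt3 at 0 in all. Ccr2 was above 0 in 6 libraries (up to 14.5), and Cd68 and Xcr1 were above 0 in 2 each. The 5 red blood cell and platelet genes summed to 44.8 in NF-kB1-deficient imiquimod replicate 3 and to at most 3.68 in any other library, with Pf4 and Ppbp at 0 in all. Without that replicate the genotype difference under imiquimod was 2.39 for each of Pik3cd and Pik3ip1. The part of depth and of these markers in the member values was not tested.

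Akt2, one of the kinases that PIP3 brings to the membrane, showed no such order. In NF-kB1-deficient cells its values were 3.51, 2.44 and 7.46 with imiquimod, against 6.98, 6.02 and 2.52 with sham. In wild-type cells they were 12.6, 11.1 and 1.98 with imiquimod, against 3.35, 9.27 and 1.86 with sham. Each pair of groups compared overlapped. The shift was -0.20 ± 1.14 in NF-kB1-deficient cells and 0.64 ± 1.14 in wild-type cells, and the shifts differed by -0.84 ± 1.61 (95% interval -4.02 to 2.35; limma adjusted p = 0.890). Between genotypes Akt2 differed by -0.63 ± 1.14 under imiquimod (adjusted p = 0.839) and by 0.21 ± 1.14 under sham (adjusted p = 0.986). Its mean over the 12 libraries, 5.75, was just above the minimum of 5 that the filter asks for, and Pik3r5, at 2.89, was the nearest member below it.

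The other 4 members fell under that filter and were not tested. Pik3r5, the regulatory partner of the gamma isoform, was above 0 in 6 libraries, at 0, 14.0 and 5.19 in NF-kB1-deficient imiquimod, 3.68, 0 and 0 in NF-kB1-deficient sham, 1.05, 0 and 3.96 in wild-type imiquimod, and 0, 6.83 and 0 in wild-type sham. Pik3cg, the gamma catalytic isoform that G protein-coupled receptors switch on, was above 0 in 3 libraries: NF-kB1-deficient sham replicates 1 (5.15) and 2 (6.02) and wild-type imiquimod replicate 1 (6.81). Neither gene separated any pair of groups compared.
Inpp5d, the phosphatase SHIP1 that takes a phosphate off PIP3, was above 0 in 5 libraries: 7.01 in NF-kB1-deficient imiquimod replicate 1, 8.81 in NF-kB1-deficient sham replicate 3, 10.5 and 4.49 in wild-type imiquimod replicates 1 and 2, and 1.46 in wild-type sham replicate 2. Akt1, the other Akt isoform, was listed at 0 in all 6 sham libraries and stood above 0 in 3 imiquimod libraries: 3.51 and 3.89 in NF-kB1-deficient replicates 1 and 3, and 5.76 in wild-type replicate 1. Deposited log2 values not above 0 were set to 0 here, so no linear value of 1 or less could remain. The lowest value above 0 was 1.001, and 1 read was worth less than 1 in 5 libraries, among them all 3 NF-kB1-deficient imiquimod libraries. A listed 0 can therefore hide a read there, and these 4 genes cannot be called absent.

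**Figure D3:**
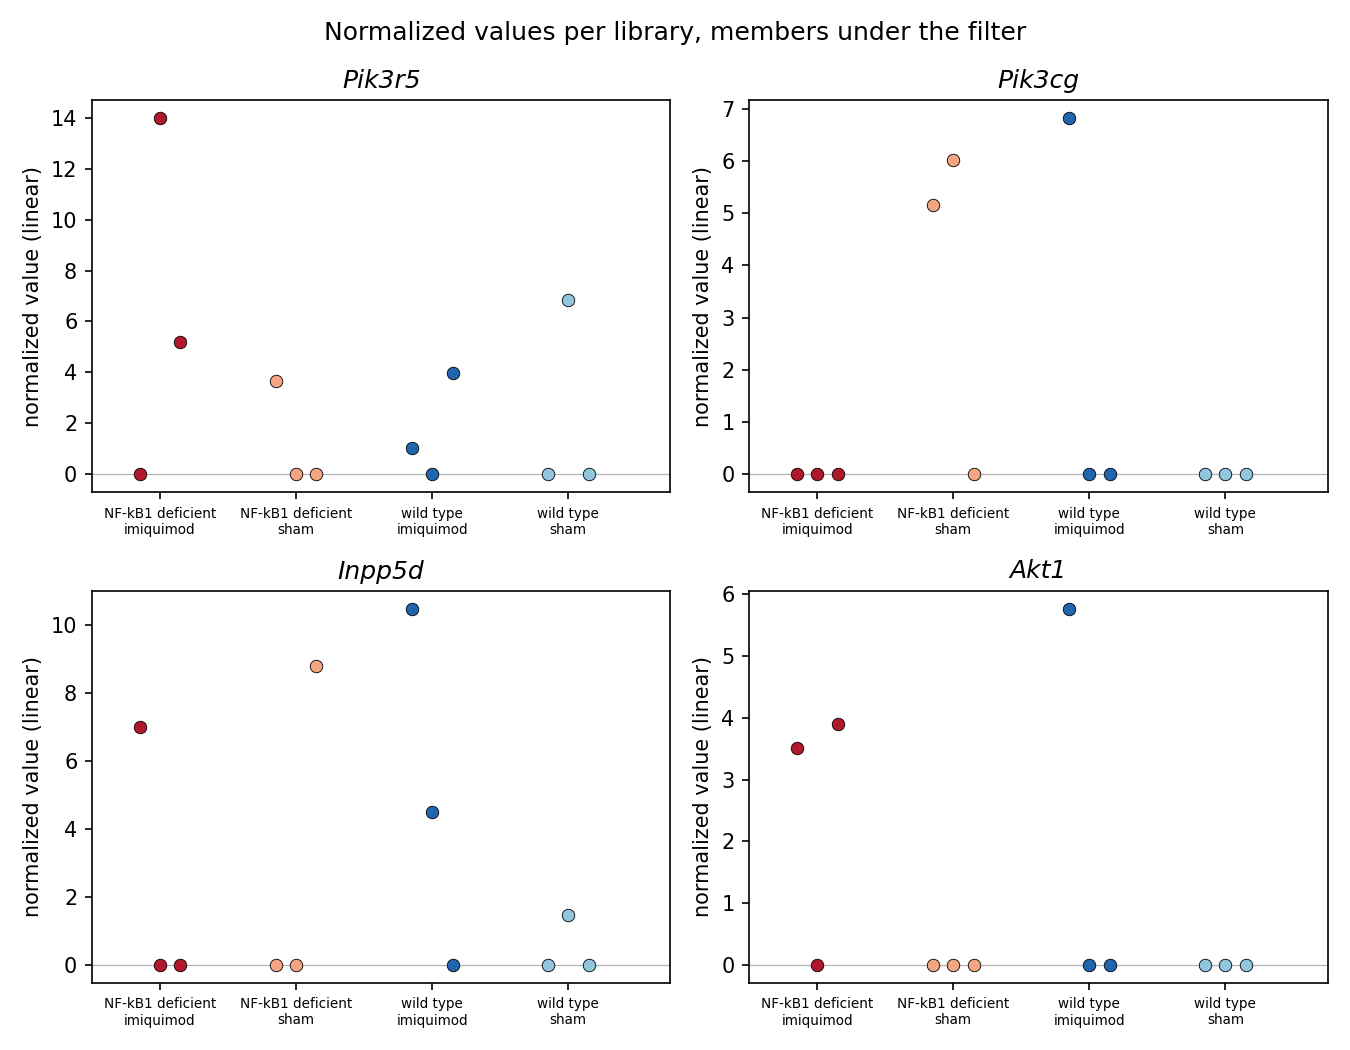
Normalized value (linear scale, vertical axis) in each library, by group along the horizontal axis, for the 4 members under the filter. Points are single libraries; most lie at 0, and no member separates any pair of groups compared.

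The members' counts stand beside those of all genes as follows. Groups did not overlap between imiquimod and sham for 1 of the 4 tested members in NF-kB1-deficient cells (11.7% of all 1571 genes tested) and for 3 of 4 in wild-type cells (21.5%), comparisons that are counted as part of the choice of members. Between genotypes groups did not overlap for 2 of 4 under imiquimod (21.1% of all genes) and 0 of 4 under sham (9.36%). By limma's adjusted p under 0.05, 0 of the 4 were called between imiquimod and sham in NF-kB1-deficient cells (0% of all genes, with 53 genes at an unadjusted p under 0.05) and 0 in wild-type cells (3.25%, with 26 genes higher and 25 lower). Between genotypes limma called 0 of 4 under imiquimod (1.78% of all genes). There 2 members and 225 of all 1571 genes were at an unadjusted p under 0.05. Under sham it called 0 (0% of all genes), with 96 genes of all but 0 members at an unadjusted p under 0.05. For the difference of shifts it called 0 (0.446%), with 2 members and 169 of all genes at an unadjusted p under 0.05. No other tool was run. In NF-kB1-deficient cells the shifts of the 4 tested members ran from -2.84 (Pik3r1) to 0.54 (Pik3ip1), with a median of 0.14, the same as over all genes. In wild-type cells the medians were -2.00 over the members and -0.07 over all genes, and for the genotype difference under imiquimod they were 1.33 and 0.13. The members were picked with these data known, so these medians are a description.

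The rest of the pathway was read from 8 lists with 119 genes, of which 118 had a row and 37 passed the filter. In NF-kB1-deficient cells 22 of the 37 had a negative shift and 15 a positive one, with a median of -0.43, while 691 of all 1571 genes were negative. In wild-type cells 27 were negative and 10 positive, with a median of -1.27, while 815 of all genes were negative. Limma called 0 of the 37 in NF-kB1-deficient cells, where 1 of the 37 and 53 of all genes were at an unadjusted p under 0.05. In wild-type cells it called 2 lower and 0 higher, against 3.25% of all genes called. Between genotypes under imiquimod 27 were positive and 10 negative, with a median of 0.93, while 727 of all genes were negative. There 2 were called higher and 0 lower, against 1.78% of all genes called. Equal totals and upper-quartile scaling moved the median of all genes between genotypes to 0.32 and 0.58, against 0.13. Relative to it 26 of the 37 lay above as deposited, 25 with equal totals and 24 with upper-quartile scaling. Under each of these, 23 lay below the median of all genes in NF-kB1-deficient cells and 27 in wild-type cells. Under sham 0 were called, with 4 of the 37 and 96 of all 1571 genes at an unadjusted p under 0.05. For the difference of shifts 0 were called, with 6 of the 37 and 169 of all genes at such a p.

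Upstream of the kinase, a list of receptors, adaptors and related signalling genes of T cells, such as Icos, Lat and Sla, held 11 tested genes. Negative shifts were found for 7 in NF-kB1-deficient cells (median -0.31) and for 7 in wild-type cells (median -0.72), with 4 positive in each. Between genotypes under imiquimod 7 were positive and 4 negative (median 0.41). In wild-type cells Lat (0.34), Fyn (0.41) and Grb2 (1.09) had positive shifts. Lck, the kinase that starts antigen receptor signalling, was at 26.8, 17.6 and 16.6 in NF-kB1-deficient imiquimod, 63.8, 29.6 and 28.1 in NF-kB1-deficient sham, 1.05, 0 and 6.93 in wild-type imiquimod and 36.5, 37.6 and 30.4 in wild-type sham. The wild-type imiquimod libraries were the lowest, with no overlap with any other group. Lck fell in wild-type cells (-3.82 ± 0.76) and was higher in NF-kB1-deficient than in wild-type cells under imiquimod (3.04 ± 0.76; limma adjusted p = 0.0152), a call that was lost under 7 of 21 alternatives (limma adjusted p = 0.0526 to 0.285). These were leaving out any single NF-kB1-deficient imiquimod library, a pseudocount of 10, no filter, no trend and robust, and only the 2 groups in the fit.
Grap2, the adaptor GADS of the antigen receptor complex, had a shift of -0.38 ± 0.77 in NF-kB1-deficient cells and fell in wild-type cells (-2.96 ± 0.77). That call was lost under 5 of 21 alternatives: when either replicate 1 of wild-type imiquimod or replicate 3 of wild-type sham was left out, without a filter, without trend and robust, and with only the 2 groups in the fit. Icos, a costimulatory receptor that recruits PI3 kinase, had a shift of 0.55 in NF-kB1-deficient cells. In wild-type cells its shift was 3.31 ± 1.14, which did not pass, at 17.8, 22.1 and 21.8 with imiquimod against 0, 9.19 and 0 with sham.

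**Figure D4:**
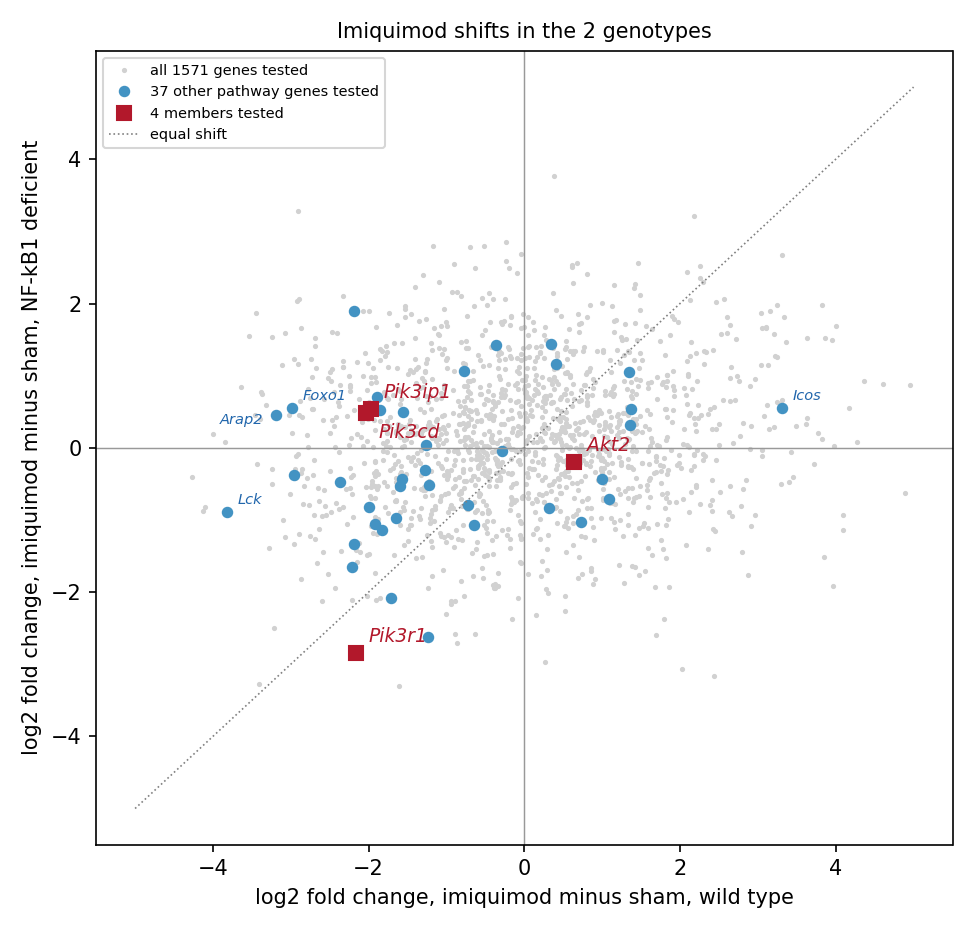
Log2 fold change for imiquimod minus sham in wild-type cells (horizontal axis) and in NF-kB1-deficient cells (vertical axis) for all 1571 tested genes (grey), 37 other pathway genes (blue) and the 4 tested members (red); the dotted line marks equal shifts. Pik3r1 lies near the line, at -2.84 in NF-kB1-deficient and -2.16 in wild-type cells, while Pik3cd and Pik3ip1 lie left of 0 on the horizontal axis and slightly above 0 on the vertical axis.

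Downstream, a list of PIP3-binding effectors and related T cell genes, such as Txk and Cytip, held 10 tested genes. Of these 4 had a negative shift in NF-kB1-deficient cells (median 0.25) and 8 in wild-type cells (median -1.42), with 0 called in each. The shift of Arap2, a regulator of small GTPases, was 0.45 in NF-kB1-deficient and -3.19 in wild-type cells. Arap2 did not pass limma's test of the difference between shifts (adjusted p = 0.363).
FOXO factors and genes they are known to switch on held 9 tested genes. Of these 7 had a negative shift in NF-kB1-deficient cells (median -0.83) and 8 in wild-type cells (median -1.82), with 0 called in each. Foxo1, the main FOXO factor of naive T cells, was at 8.01, 7.10 and 15.8 in NF-kB1-deficient imiquimod, 19.8, 0 and 17.6 in NF-kB1-deficient sham, 1.05, 7.37 and 0 in wild-type imiquimod and 12.3, 21.5 and 27.3 in wild-type sham. Its shift was 0.55 in NF-kB1-deficient cells and -2.98 in wild-type cells, where the groups did not overlap. Ccr7, the chemokine receptor for lymph node entry, had a shift of -1.34 in NF-kB1-deficient and -2.18 in wild-type cells.

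**Figure D5:**
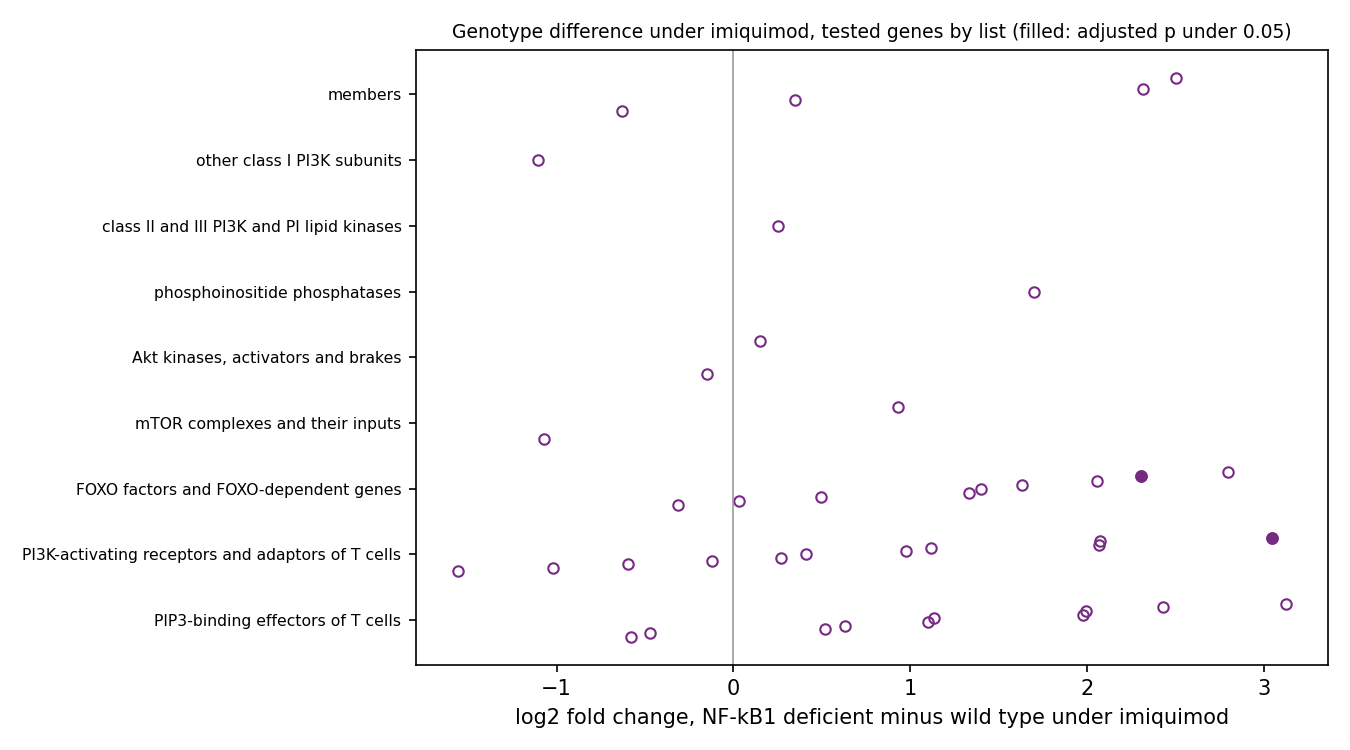
Log2 fold change for NF-kB1 deficient minus wild type under imiquimod (horizontal axis) for the tested members and the tested genes of each pathway list (rows); filled circles passed an adjusted p of 0.05. Lck (3.04) and Il7r (2.31) are filled. Right of 0 lie 8 of 9 FOXO-list genes and 8 of 10 genes listed with the PIP3-binding effectors. The median of all 1571 genes tested is 0.13.

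Between genotypes under imiquimod, 8 of the 9 FOXO-list genes had a positive difference (median 1.40), while the median of all genes was 0.13. As deposited, with equal totals and with upper-quartile scaling, 7 of the 9 lay above the median of all genes. Klf2, at a mean of 32.4 over the 12 libraries, differed by 0.03 and had a shift of -0.83 in NF-kB1-deficient and 0.32 in wild-type cells. Il7r, the interleukin-7 receptor chain that supports lymphocyte survival, was at 35.3, 48.5 and 27.9 in NF-kB1-deficient imiquimod and 10.5, 11.6 and 1.98 in wild-type imiquimod. Its difference of 2.31 ± 0.67 passed (limma adjusted p = 0.0459), with no overlap, and the call was lost under 13 of 21 alternatives (adjusted p up to 0.611). Leaving out any of 8 single libraries did so, as did either other pseudocount, no filter, no trend and robust, and only the 2 groups in the fit. The remaining lists had 1 or 2 tested genes each. Pik3ca, the alpha catalytic isoform, had shifts of -0.43 in NF-kB1-deficient and 1.002 in wild-type cells. None of Pik3ca, Pip4k2b, Ppp2r5c, Themis, Eif4ebp2 and Gsk3b was called in any comparison.

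By Pearson's r of log2(normalized value + 1) over the 12 libraries, the tested genes most like Pik3r1 were Ablim1 (r = 0.87), Gm1966 (0.84) and Irf2bpl (0.82). Ablim1 stood at 28.1, 14.3 and 15.8 in NF-kB1-deficient imiquimod, 51.8, 56.9 and 24.7 in NF-kB1-deficient sham, 12.5, 20.03 and 10.4 in wild-type imiquimod and 57.4, 35.4 and 33.1 in wild-type sham. The genes most like Pik3cd were H2-Q7 (0.87), Tgtp1 (0.86) and Kbtbd11 (0.85). Those most like Pik3ip1 were Rps3a1 (0.91), Foxp1 (0.91) and Vsir (0.90), and those most like Akt2 were Top1 (0.83), U2surp (0.82) and Srsf3 (0.80). The 4 sets of 3 genes share no gene. These libraries share groups and depth, so the correlations describe this table.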

How the data were processed

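Trizol-extracted RNA went into QuantSeq 3' FWD libraries, per the labels' protocols; the submitters' processing notes name mm10 as the build. The sources used here name no aligner, counter, annotation or normalization tool. The deposited values are normalized read counts on a log2 scale, and 0 value columns were left unused. Each value above 0 was taken back to the linear scale, and all others were set to 0. Low values fell on steps of whole reads and of fractions of a read: below 20 reads, 71.3% to 80.3% were whole to within 0.01 read. Counts could not be recovered from these, and no count test was run. The implied depths and read numbers are estimates that cover counting only.

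R 4.3.3 ran limma 3.58.1 for every test, on log2(normalized value + 1). The filter asked for a mean of 5 or more over 12 libraries (1571 of 45796 genes), all libraries entered 1 fit with a coefficient per group, and eBayes used trend and robust (residual degrees of freedom 8; prior, median 145). Benjamini-Hochberg adjustment ran over all 1571 genes, with calls at an adjusted p under 0.05. The SE is moderated. A fold on this scale understates changes of low genes. An exact permutation test of 3 against 3 libraries cannot go below 0.1 and was not used.

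The members, lists and tests were chosen with earlier results of these data known. Named are all members, tested genes of the pathway lists (some are not reported here), and for each tested member the 3 genes with the highest correlation. Promoters were read from RefSeq (GRCm38.p6, the build mm10 names), with Python 3.11.15, pandas 2.3.3 and numpy 2.4.6; figures used matplotlib 3.10.9. Alternatives were other pseudocounts, filters, scalings, variance models and groups in the fit, a replicate block, and each library left out in turn.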

Additional observations from a re-analysis of the deposited data

How the results depend on the processing

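Under the alternatives, which left out each library in turn or changed 1 setting, the Pik3r1 shift stayed negative, between -3.17 and -1.88 in NF-kB1-deficient cells and between -2.77 and -1.26 in wild-type cells. In wild-type cells the shift was -2.52 to -1.07 for Pik3cd and -2.43 to -0.96 for Pik3ip1. Their genotype differences under imiquimod stayed positive, 1.31 to 2.81 for Pik3cd (adjusted p 0.0147 to 0.752) and 1.30 to 2.97 for Pik3ip1 (0.0284 to 0.752). Members called in that comparison were 2 with upper-quartile scaling, against 0, and 0 to 1 with a library left out. That scaling moved the median of all genes to 0.58, against 0.13. Relative to the median Pik3cd was at 2.22, against 2.18, and Pik3ip1 at 2.39, against 2.37. In NF-kB1-deficient cells 1 member, Pik3r1, was called when only the 2 groups compared were fitted, in a comparison that is counted as part of its choice. Signs turned round in small differences. In the genotype difference under sham, Pik3ip1 was 0.0017 with a pseudocount of 0.1, 0.017 with equal totals and -0.42 to 0.50 with a library left out. Pik3cd there was 0.0018 with a pseudocount of 10 and -0.77 to 0.79 with a library left out, and Akt2 was -0.20 to 0.72. In NF-kB1-deficient cells the Akt2 shift was 0.0016 with upper-quartile scaling and -0.56 to 0.085 with a library left out, and the Pik3cd shift was -0.51 to 1.05. Pik3r1 differed by -0.14 to 0.83 between genotypes under imiquimod. The causes were not tested.

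Of 1571 genes tested, those called in wild-type cells were 26 with a pseudocount of 0.1, 28 with only the 2 groups, 18 without trend and robust and 23 to 72 with a library left out, against 51. Between genotypes under imiquimod they were 57 with upper-quartile scaling, 18 with a pseudocount of 0.1, 17 with only the 2 groups, 0 without trend and robust and 4 (without NF-kB1-deficient imiquimod replicate 2) to 42 with a library left out, against 28. For the difference of shifts they were 0 without trend and robust and 2 to 12 with a library left out, against 7, and 13 of the fewer genes with a mean of at least 20. Without a filter 9732 genes were tested, of which 11 were called in wild-type cells, 3 between genotypes under imiquimod and 1 for the difference of shifts. With the replicate block 55 were called in wild-type cells and 32 between genotypes under imiquimod, and 0 members were called in any of the 5 comparisons. Deviations of libraries with the same number had r of -0.01 to 0.06, with 0 of 18 pairs over 0.1, so no pairing by number was detected. Many genes rest on few reads and libraries with different numbers were not compared, so this check could miss a pairing. Depth limits the low members: the 4 under the filter were not tested.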
